A study of Mus musculus with 4 samples.

Results

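The type I interferon response genes described here are 39 mouse genes chosen by symbol, of which 37 had rows in the count matrices of 32285 genes. The GTPase genes Mx1 and Mx2 are not analysed here. The 37 genes were read in leukocytes of B16-F10 tumours, a transplantable mouse melanoma, in 4 single-cell libraries of 1 treatment group each.

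Every mouse carried a B16-F10 tumour, was injected into the tumour and into a vein on days 8 and 11, and gave its tumour on day 14. The control library came from mice given dilution buffer into the tumour and IgG, and the CD40 library from mice given antibody against CD40, a receptor through which antigen-presenting cells are activated, with IgG. The PD1 library came from mice given buffer and an antibody to PD1, an inhibitory receptor of T cells, and the combination library from mice given both antibodies. Tumours of 6 mice were pooled for each library before sorting of live leukocytes by CD45, so single mice cannot be told apart. With 1 library per group there is no spread between replicates and no test. Intervals are exact, cover 95% and hold counting error only.

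Type I interferons, interferon beta and the interferon alpha family, bind the receptor made of Ifnar1 and Ifnar2, whose kinases Jak1 and Tyk2 relay the signal. A complex that contains Stat2 and Irf9 then binds interferon-stimulated response elements in the promoters of the response genes. The products bind or degrade viral nucleic acids, restrict virus entry and release, amplify the response or end it, and in tumours they are known as a trace of nucleic acid sensing. Many response genes are also raised by interferon gamma, which has a receptor of its own.

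After filtering, the control library kept 7736 cells, the CD40 library 7757, the PD1 library 9681 and the combination library 9481, and the median depth lay between 11390.5 and 14663 unique molecular identifiers (UMIs). Between 94 and 144 barcodes were shared by any pair of libraries. The labels give melanoma as the cell type, while 8 to 16 cells per library passed the melanoma marker gate. Cells were put in classes by marker genes, and 8 classes held at least 50 cells in every library: macrophages, classical monocytes, non-classical monocytes, neutrophils, NK cells, CD8 T cells, conventional CD4 T cells and regulatory T cells. Conventional dendritic cells numbered 315 with control, 14 with CD40 antibody, 257 with PD1 antibody and 11 with both, so that they, with mature dendritic cells and B cells, were compared between PD1 and control only. A level, in CPM, is the UMIs of a gene among each 1000000 UMIs of all genes, after summing a class, and libraries are given in the order control, CD40, PD1 and combination. A gene was measured in a class with at least 50 UMIs over the 4 libraries. A ratio is the log2 ratio of CPM, and 1.5-fold is the size from which a member is counted as higher or lower.

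The 37 genes lie on 15 chromosomes of GRCm38, and all are protein-coding. Several sit in clusters of related genes: Ifit2, Ifit3, Ifit3b and Ifit1 on chromosome 19, and Oasl2, Oasl1, Oas2, Oas3, Oas1g and Oas1a on chromosome 5. Ifit2 spans chr19:34550694-34576419, Ifit3 chr19:34583531-34588731, Ifit3b chr19:34607970-34613401 and Ifit1 chr19:34640871-34650009. Reads of close copies (Ifit3 and Ifit3b, Oas1a and Oas1g, Ifi204 and Ifi205, Slfn5 and Slfn8) can be assigned to either gene or dropped, so values of single copies are uncertain.

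The promoter sequences below are shown because the response element is the feature these genes share outside the counts. RefSeq windows on GRCm38.p6, from 250 bases before to 50 after the start, were matched for 30 of the 37 genes. The core of the response element was searched on both strands as GAAA, any 2 bases, GAAA, which reads TTTC, any 2 bases, TTTC in reverse. A match lay in the window of 18 of the 30 members (60.0%), against 3.99% of 27025 genes with a window. The core of the interferon gamma element, TTCNNNGAA, lay in 7 of the 30 (23.3%), against 9.55% of all genes, and the cores of both motifs may overlap. A match is a description of letters and not a site shown to be bound.

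In the stretches printed 5′ to 3′ on the strand of each gene, all upstream of the start, capitals mark every match to the response element core. They come from Isg15 (chr4:156200855-156200916), Ifit1 (chr19:34640765-34640833), Ifit3 (chr19:34583353-34583436), Ifit3b (chr19:34607749-34607832), Rsad2 (chr12:26456543-26456592) and Bst2 (chr8:71537567-71537622).
Isg15: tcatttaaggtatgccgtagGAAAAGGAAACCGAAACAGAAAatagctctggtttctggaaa
Ifit1: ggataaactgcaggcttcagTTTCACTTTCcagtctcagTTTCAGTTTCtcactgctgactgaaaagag
Ifit3: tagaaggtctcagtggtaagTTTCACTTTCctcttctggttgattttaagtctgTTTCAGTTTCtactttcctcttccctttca
Ifit3b: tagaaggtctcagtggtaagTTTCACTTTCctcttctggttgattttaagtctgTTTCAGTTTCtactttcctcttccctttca
Rsad2: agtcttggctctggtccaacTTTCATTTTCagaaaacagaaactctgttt
Bst2: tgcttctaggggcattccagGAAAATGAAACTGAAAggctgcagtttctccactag
The stretches of Ifit3 and Ifit3b are the same in all 84 letters, and both genes were among those with the largest differences in classical monocytes below. The windows of Irf7, Ifit2, Oasl1, Isg20, Cmpk2, Xaf1 and Ifi44 held no match to these letters.

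The members were read mostly in myeloid cells. In the control library their summed level was 11994 CPM in classical monocytes, 9435 CPM in non-classical monocytes, 5057 CPM in neutrophils and 4904 CPM in macrophages. It was 1961 CPM in NK cells, 1137 CPM in CD8 T cells, 3058 CPM in conventional CD4 T cells and 2441 CPM in regulatory T cells. Ifitm3, a membrane protein that restricts virus entry, gave between 32.9% and 37.6% of all member UMIs over the kept cells of a library. Of the 11 classes with at least 50 cells in the control library, classical monocytes held the highest level for 20 of the 37 members, and neutrophils for 7.

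The class with the highest level differed between libraries. In the CD40 library neutrophils led for 25 members and classical monocytes for 2, out of 8 classes. In the combination library neutrophils led for 21 members and classical monocytes for 9. In the PD1 library classical monocytes led for 17 and neutrophils for 12, out of 12 classes.

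The question of what the CD40 antibody did to these genes was read in a pair of comparisons that share no library, CD40 against control and combination against PD1. Classical monocytes, the Ly6c2 and Ccr2 expressing cells that enter the tumour from blood, had lower levels with the antibody. In CD40 against control 20 of 37 members were at least 1.5-fold lower and none higher, with a median ratio of -0.61, while 6.72% of the 11727 genes measured in that class were lower by as much, 6.69% were higher and the median of all genes was 0.00. Combination against PD1 gave 9 of 37 lower and none higher, with a median of -0.40, beside 6.58% and 5.55% of all genes. Most members lay below 0, 35 in the first comparison and 34 in the second.

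**Figure D1:**
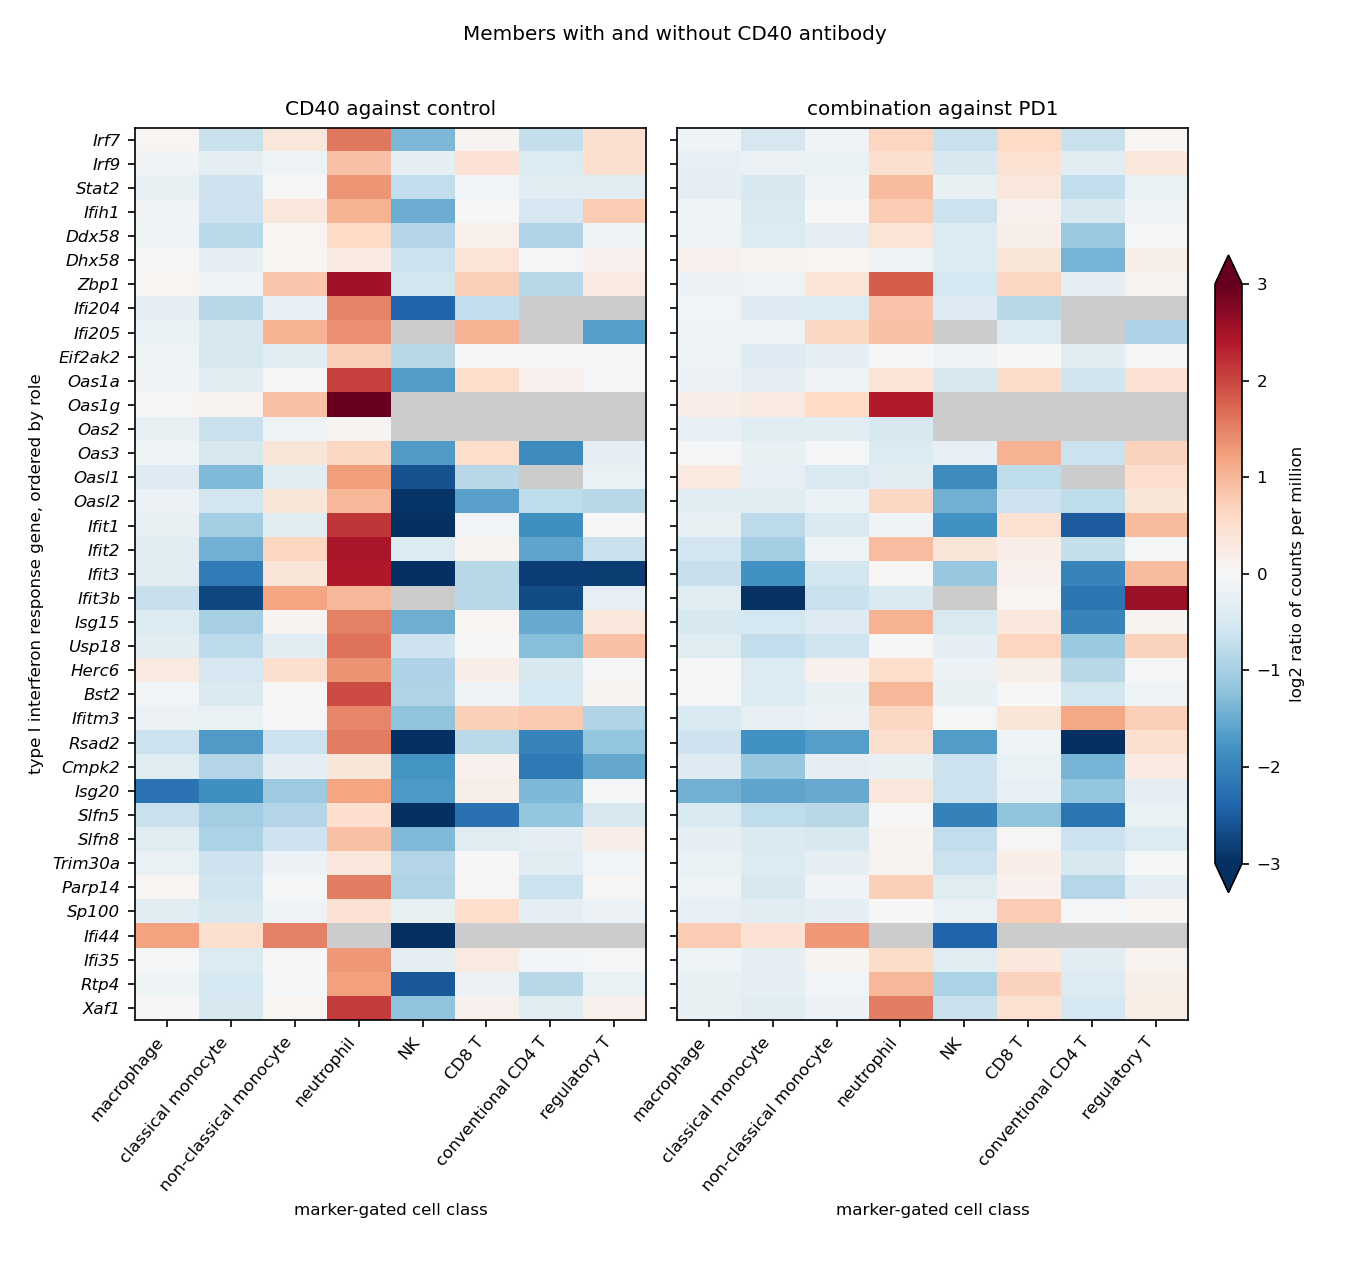
Log2 ratios of CPM for the 37 members (rows, ordered by role) in 8 cell classes (columns), with CD40 against control on the left and combination against PD1 on the right. Blue is lower and red higher with CD40 antibody, grey has under 50 UMIs, and colours end at -3 and 3. The classical monocyte, NK cell and conventional CD4 T cell columns are mostly blue and the neutrophil column is mostly red.

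The IFIT family, proteins that bind foreign RNA and block its translation, had all 4 members lower in classical monocytes in both comparisons, with medians of -1.76 and -1.41. Ifit3 stood at 185.5, 43.7, 181.7 and 52.0 CPM, low in both libraries given CD40 antibody, with ratios of -2.09 (-2.21 to -1.97) and -1.81 (-1.90 to -1.71). Its neighbour Ifit3b, with the same printed promoter stretch, stood at 28.5, 4.34, 23.6 and 3.04 CPM, with ratios of -2.72 and -2.96. Ifit2 stood at 146.7, 54.1, 200.1 and 98.4 CPM, with ratios of -1.44 and -1.02. The highest Ifit2 level was in the PD1 library, whereas Ifit3 was about level between control and PD1, with a ratio of -0.03 (-0.10 to 0.04).

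The enzymes that act on nucleotides and RNA were lower in all 3 members in both comparisons. Rsad2 encodes viperin, which makes a chain-terminating nucleotide, and stood at 289.9, 89.4, 234.5 and 66.5 CPM. Its ratios were -1.70 (-1.78 to -1.61) and -1.82 (-1.90 to -1.73), so that both CD40 antibody libraries lay below both others. Isg20, an RNA exonuclease, stood at 111.1, 30.9, 119.7 and 40.0 CPM, with ratios of -1.85 and -1.58. Cmpk2, a nucleotide kinase beside Rsad2 on chromosome 12, stood at 60.8, 33.2, 63.2 and 28.7 CPM, with ratios of -0.88 and -1.14. Of the Schlafen genes, Slfn5 stood at 420.3, 204.5, 485.7 and 283.9 CPM, with ratios of -1.04 and -0.77.

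The ubiquitin-like modifier Isg15 and the transcription factor Irf7 were also lower, with smaller ratios. Isg15 stood at 932.0, 468.2, 1322.1 and 923.0 CPM in classical monocytes, with ratios of -0.99 and -0.52. The combination library was thus at the level of the control and not of the CD40 library. Irf7, which drives the interferon alpha genes, stood at 472.9, 296.6, 631.3 and 442.3 CPM, with ratios of -0.67 and -0.51. Stat2 stood at 140.3, 92.0, 166.2 and 118.4 CPM, with ratios of -0.61 and -0.49, and its partner Irf9 at 68.7, 57.1, 70.2 and 62.2 CPM, with ratios of -0.27 and -0.18. Of the 3 factors 2 were at least 1.5-fold lower in CD40 against control, as were 3 of 7 sensors (Ifih1, Ddx58 and Ifi204) and 2 of 6 members (Oas2 and Oasl1) of the 2-5A synthetase family, which includes the enzymes that signal RNA decay. None of these groups had a member past 1.5-fold in the second comparison.

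A few members kept or exceeded their level in classical monocytes with CD40 antibody. Ifi44 stood at 8.37, 11.6, 9.02 and 12.2 CPM, with ratios of 0.47 (0.14 to 0.81) and 0.44 (0.17 to 0.70). Oas1g stood at 46.9, 50.7, 44.6 and 53.1 CPM, with ratios of 0.11 and 0.25. Zbp1, a sensor of Z-form nucleic acid, stood at 367.1, 336.3, 617.5 and 555.1 CPM, with ratios of -0.13 and -0.15. Its level thus differed by the PD1 antibody more than by the CD40 antibody.

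The lower count in classical monocytes moved with which cells were read. Cells with a UMI of Cxcl10, a chemokine induced by both interferon types, were 29.9%, 31.0%, 55.3% and 52.3% of classical monocytes. Without those cells 9 of 37 members were lower in the first comparison, beside 6.82% of all genes, and 4 of 37 in the second, beside 7.60%. Over all mononuclear phagocytes together the counts were 10 and 7, beside 7.29% and 6.37%. With classes taken from clusters they were 14 and 15, beside 6.74% and 7.14%. With equal weight for each cell they were 16 and 9, beside 7.06% and 6.80%. The 4 of 37 thus lay near the share over all genes. The gated cells also differed in other markers with CD40 antibody. In classical monocytes the 5 macrophage markers summed to 1465, 290.9, 1022 and 206.4 CPM. The 8 neutrophil markers summed to 96.2, 614.5, 119.4 and 313.0 CPM. Whether the member levels differed within a like set of monocytes was not tested.

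Among the 8 classes NK cells had the largest share of members lower in CD40 against control. Of 33 measured members 28 were at least 1.5-fold lower and none higher in CD40 against control, with a median of -1.32, beside 16.0% lower and 10.8% higher of the 10372 genes measured there and an all-gene median of -0.05. The comparison of combination with PD1 had 15 of 33 lower and none higher, with a median of -0.49, beside 10.9% and 8.21% of all genes. When the class was taken from clusters 5 of 36 were lower in that comparison, beside 9.38%, near the share over all genes. All 33 lay below 0 in the first comparison and 32 in the second.

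The levels in NK cells were low. Irf7 stood at 83.1, 32.8, 87.3 and 54.8 CPM, with ratios of -1.34 (-1.63 to -1.05) and -0.67 (-0.88 to -0.47). Ifit1, which binds RNA lacking the host cap, stood at 20.8, 1.80, 21.1 and 6.00 CPM, with ratios of -3.53 (-4.72 to -2.52) and -1.81 (-2.38 to -1.27). Both had their highest levels in the control and PD1 libraries and their lowest in the CD40 library. Rsad2 had 43, 3, 43 and 19 UMIs, or 13.1, 0.601, 9.07 and 2.85 CPM, and its ratio of -4.45 had an interval of -6.78 to -2.81. Slfn5 stood at 15.3, 1.60, 17.1 and 4.20 CPM, with ratios of -3.25 (-4.54 to -2.17) and -2.02 (-2.70 to -1.39). Oasl1, which restrains Irf7 translation, had 64, 16, 71 and 27 UMIs, with ratios of -2.61 and -1.89. Ifi44 had 38, 6, 34 and 9 UMIs and ratios of -3.27 and -2.41, both below 0, whereas both were above 0 in the phagocyte classes. The partners of the response complex differed less, with Irf9 at 48.9, 39.6, 56.3 and 40.5 CPM and Stat2 at 33.0, 19.6, 29.3 and 25.2 CPM.

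Dividing cells were more frequent in the NK cells of the CD40 antibody libraries. A UMI of Mki67 or Top2a was found in 12.5%, 42.6%, 14.1% and 38.3% of NK cells. Among NK cells with neither UMI 26 of 33 members were lower in the first comparison, beside 16.4% of all genes, and 11 of 33 in the second, beside 10.9%. The 7 phagocyte markers in NK cells had a median level between 0.268% and 0.944% of that in phagocytes, and this free RNA share was lower in the CD40 and combination libraries (0.412% and 0.268%) than in the control and PD1 libraries (0.543% and 0.944%). For Isg15 the same share of the phagocyte level would give 2.78, 1.34, 7.97 and 1.63 CPM, beside 122.2, 44.4, 90.7 and 65.9 CPM read.

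**Figure D2:**
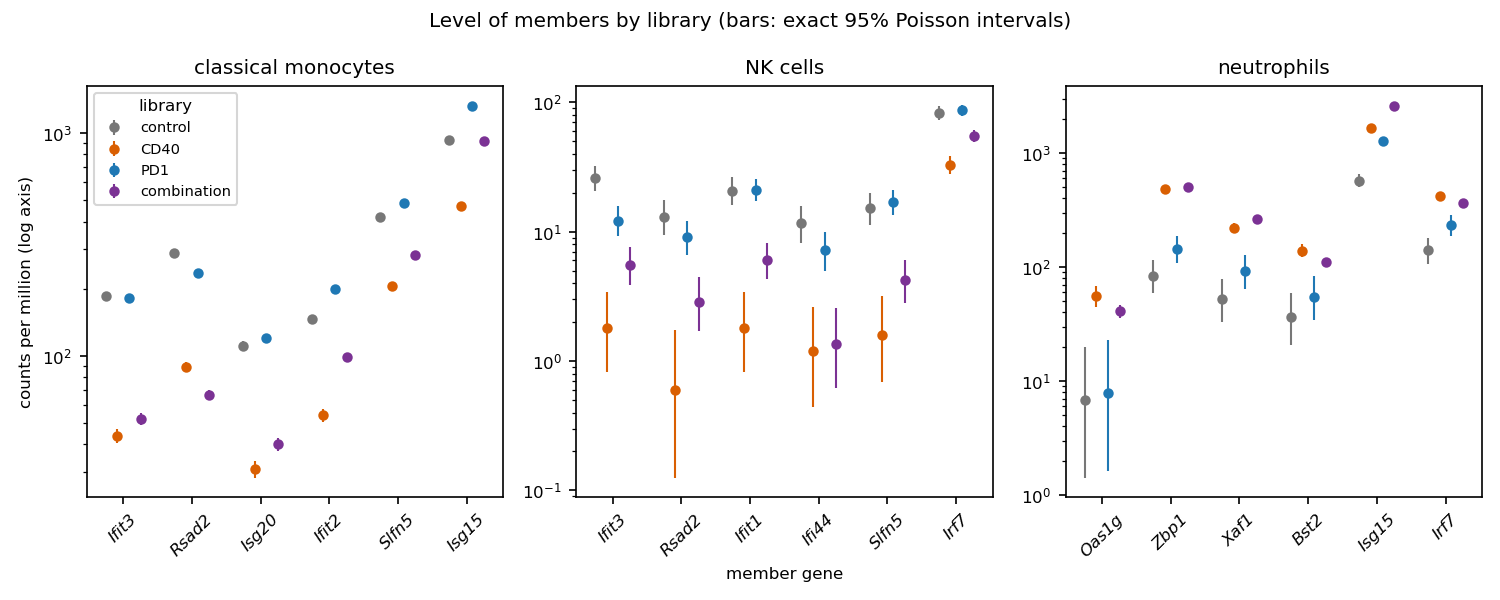
CPM (log axis) of 6 members each in classical monocytes, NK cells and neutrophils, with 1 point per library and exact 95% Poisson intervals. Classical monocytes and NK cells have the CD40 and combination libraries lowest for Ifit3 and Rsad2, while in neutrophils they are highest for Oas1g, Zbp1, Xaf1 and Bst2.

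Conventional CD4 T cells, with 170, 58, 157 and 84 cells, also had lower levels. In CD40 against control 17 of 31 measured members were lower and 1 higher, with a median of -0.71, beside 15.5% of all genes lower and 11.9% higher. The second comparison had 20 of 31 lower and 1 higher, with a median of -0.72, beside 14.2% and 9.67%. Isg15 stood at 205.1, 72.0, 364.4 and 90.2 CPM, with ratios of -1.51 and -2.01 (-2.38 to -1.66), and Ifit3 at 110.2, 15.6, 102.6 and 25.6 CPM, with ratios of -2.82 (-4.07 to -1.79) and -2.00 (-2.72 to -1.34). Both libraries with CD40 antibody lay below both others for these genes. Ifit1 stood at 90.8, 25.3, 149.7 and 26.7 CPM, with ratios of -1.84 and -2.49. Rsad2 had only 23, 2, 53 and 5 UMIs and Ifit3b only 37, 1, 37 and 7. The factors differed less, with Irf7 at 108.2, 66.1, 134.7 and 84.7 CPM, Irf9 at 72.4, 54.5, 81.9 and 64.6 CPM and Stat2 at 38.8, 31.1, 53.7 and 32.3 CPM. The member that was higher in both comparisons was Ifitm3, at 139.8, 239.3, 138.4 and 309.7 CPM, with ratios of 0.78 (0.41 to 1.14) and 1.16 (0.87 to 1.46).

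Neutrophils went the other way. In CD40 against control 30 of 36 measured members were at least 1.5-fold higher and none lower, with a median of 1.31, beside 14.7% higher and 20.8% lower of 6893 genes and an all-gene median of -0.12. For combination against PD1, 15 of 36 were higher and none lower, with a median of 0.49, beside 10.3% of all genes higher, 46.1% lower and an all-gene median of -0.52. Relative to that median 24 of 36 members were higher in the second comparison, beside 24.0% of all genes. All 36 lay above 0 in the first comparison and 26 in the second.

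Among the nucleic acid sensors in neutrophils, Zbp1 stood at 83.5, 481.9, 143.9 and 506.0 CPM, with ratios of 2.53 (2.05 to 3.05) and 1.81 (1.43 to 2.23). Both CD40 antibody libraries lay above both others for Zbp1 and for Xaf1, a gene linked to cell death, which stood at 51.9, 221.3, 91.6 and 265.9 CPM with ratios of 2.09 and 1.54. Bst2, which tethers budding virus to the cell, stood at 36.1, 139.1, 55.0 and 109.5 CPM, with ratios of 1.95 (1.22 to 2.78) and 1.00 (0.37 to 1.70). Oas1g rested on 3, 92, 3 and 221 UMIs, or 6.77, 55.6, 7.85 and 41.0 CPM, with ratios of 3.04 (1.45 to 5.34) and 2.39 (0.82 to 4.67). Irf7 stood at 139.9, 419.6, 232.9 and 362.4 CPM, with ratios of 1.59 and 0.64, and Irf9 at 74.4, 137.9, 78.5 and 109.9 CPM, with ratios of 0.89 and 0.49. Stat2 stood at 38.3, 95.5, 57.6 and 110.7 CPM, with ratios of 1.32 and 0.94.

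Isg15 in neutrophils was higher with either antibody and highest with both, at 572.9, 1645.2, 1264.1 and 2608.3 CPM. Its ratios were 1.52 (1.34 to 1.71) in CD40 against control and 1.05 (0.91 to 1.18) in combination against PD1. The IFIT family differed from this. Ifit1 stood at 72.2, 319.9, 301.0 and 278.0 CPM and Ifit3 at 67.7, 360.4, 217.2 and 223.7 CPM, so that their ratios in CD40 against control were 2.15 and 2.41. Those in combination against PD1 were -0.11 (-0.39 to 0.17) for Ifit1 and 0.04 (-0.28 to 0.38) for Ifit3. Only the control library was low for both genes.

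The neutrophil values rest on 196, 398, 154 and 1085 cells with median depths of 2022.5, 3672, 2185.5 and 4526 UMIs. The phagocyte markers had a median level of 9.56%, 17.7%, 16.4% and 6.42% of that in phagocytes. Bst2 stood at 496.9, 469.2, 519.7 and 495.4 CPM in macrophages, and how much of neutrophil Bst2 was free RNA at these shares was not tested. The 5 classical monocyte markers in neutrophils summed to 216.5, 1501, 588.8 and 1015 CPM. Whether the member levels differed within a like set of neutrophils was not tested.

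Macrophages and non-classical monocytes had few members past 1.5-fold with CD40 antibody. In macrophages 4 of 37 were lower and 1 higher in CD40 against control, with a median of -0.18, beside 6.77% and 6.96% of all genes. Of the same members 3 were lower and 1 higher in combination against PD1, with a median of -0.22, beside 6.41% and 7.14%. Isg20 was among the lower ones, at 29.2, 6.31, 35.9 and 13.2 CPM, with ratios of -2.21 (-2.38 to -2.05) and -1.44 (-1.60 to -1.29). Rsad2 stood at 113.8, 72.7, 154.2 and 101.2 CPM, with ratios of -0.65 and -0.61. The higher one was Ifi44, at 4.22, 9.80, 6.50 and 11.1 CPM, with ratios of 1.21 (0.97 to 1.46) and 0.77 (0.55 to 0.99). Macrophage Irf7 stood at 185.9, 195.0, 315.0 and 288.1 CPM, Irf9 at 40.6, 37.9, 47.9 and 40.6 CPM and Stat2 at 64.2, 54.7, 88.3 and 73.3 CPM, with CD40 antibody ratios between -0.27 and 0.07.

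In non-classical monocytes, the patrolling cells marked by Ace and Treml4, 4 members were lower and 6 higher in CD40 against control, beside 8.27% and 9.49% of all genes, and 5 lower and 3 higher in combination against PD1, beside 6.80% and 5.44%. Isg20 stood at 53.0, 24.9, 73.7 and 26.0 CPM and Slfn5 at 308.5, 166.7, 367.8 and 207.0 CPM, low in both CD40 antibody libraries as in classical monocytes. Ifi44 stood at 4.70, 13.5, 4.34 and 10.8 CPM, with ratios of 1.52 (0.81 to 2.31) and 1.31 (0.77 to 1.89). Ifi205, a sensor of the family that includes Ifi204, stood at 132.4, 275.0, 245.0 and 375.0 CPM, with ratios of 1.05 and 0.61, and Oas1g at 33.2, 60.4, 36.8 and 55.2 CPM, with ratios of 0.87 and 0.59. Ifi44 and Oas1g were high in both CD40 antibody libraries only, while Ifi205 was also higher in PD1 against control, with a ratio of 0.89 (0.75 to 1.03). Of the factors, Irf7 stood at 327.0, 416.3, 512.2 and 476.6 CPM, Irf9 at 75.7, 67.8, 74.3 and 64.5 CPM and Stat2 at 108.9, 110.3, 133.9 and 122.9 CPM. Ifit3b had opposite signs, 1.19 and -0.67, on 29, 193, 168 and 151 UMIs. Rsad2, at 70.5, 45.1, 83.6 and 26.7 CPM, had ratios of -0.64 and -1.65, which became 0.34 and 0.32 when the class was taken from clusters. The 5 classical monocyte markers in this class summed to 5388, 7330, 6392 and 7560 CPM, about as high as in classical monocytes. Its 5 non-classical markers summed to 1456, 1619, 1459 and 1348 CPM. Its 5 macrophage markers summed to 1679, 144.0, 1254 and 126.6 CPM. Whether the member levels differed within a like set of these cells was not tested.

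CD8 T cells and regulatory T cells had no common direction with CD40 antibody. In CD8 T cells 7 of 34 measured members were lower and 3 higher in CD40 against control, beside 9.81% and 7.77% of all genes, and 4 lower and 6 higher in combination against PD1, beside 7.48% and 8.61%. Slfn5 stood at 12.3, 2.62, 7.69 and 3.33 CPM, with ratios of -2.23 (-2.67 to -1.80) and -1.21 (-1.54 to -0.88), while Zbp1 stood at 61.3, 100.3, 97.4 and 150.6 CPM, with ratios of 0.71 and 0.63. Zbp1 was thus highest in the combination library and lowest in the control. Oasl2 stood at 3.62, 1.17, 3.79 and 2.45 CPM, with ratios of -1.63 and -0.63. Oasl1 stood at 1.65, 0.920, 2.06 and 1.22 CPM, with ratios of -0.84 (-1.80 to 0.15) and -0.76 (-1.36 to -0.14). Ifi204 stood at 1.65, 0.991, 3.06 and 1.72 CPM, with ratios of -0.74 (-1.67 to 0.25) and -0.83 (-1.33 to -0.33). Both intervals of the first comparison include 0, and free RNA at the phagocyte marker share would give 0.139, 0.149, 0.287 and 0.212 CPM of Oasl1 and 0.352, 0.420, 0.901 and 0.570 CPM of Ifi204. In regulatory T cells, with 375, 96, 357 and 124 cells, 7 of 33 were lower and 2 higher in the first comparison, beside 13.3% and 7.81%, and 1 lower and 6 higher in the second, beside 15.7% and 5.48%. Ifit3 in that class rested on 85, 3, 84 and 66 UMIs, with ratios of -2.85 (-5.16 to -1.26) and 0.94 (0.45 to 1.42). Ifitm3 also had opposite signs there, at 106.0, 56.6, 79.9 and 131.9 CPM, with ratios of -0.91 and 0.72. Usp18, the protease that removes Isg15 and damps receptor signalling, stood at 17.1, 31.8, 32.1 and 51.3 CPM and was higher in both, with ratios of 0.89 and 0.68. Ifi205 had 37, 1, 23 and 5 UMIs. Among the factors, Irf7 stood at 63.4, 88.4, 118.7 and 123.0 CPM, Irf9 at 59.8, 83.7, 79.6 and 100.2 CPM and Stat2 at 61.6, 48.3, 68.9 and 59.4 CPM. With a stricter gate Ifitm3 had a ratio of 0.59 and Ifi205 of 1.83 in CD40 against control, and with classes from clusters Ifit3 had -0.10 and Ifitm3 -2.77 in combination against PD1, each with the opposite sign.

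Read by gene over the 8 classes, Rsad2 was lower in 7 classes and higher in 1, the neutrophils, in CD40 against control, and lower in 5 and higher in none in the other comparison. Slfn5 was lower in 6 classes and then in 5, and Isg20 in 5 and 5, with Isg20 higher in 1 class in the first comparison, while Sp100, a nuclear body protein, was past 1.5-fold in none of 8 in the first comparison and higher in 1 in the second. Zbp1 was higher in 3 classes and lower in 1 in the first comparison, and higher in 2 and lower in none in the second. These class counts have no share over all genes beside them, so they describe the named members alone. For Rsad2 the non-classical monocyte ratios became 0.34 and 0.32 with classes from clusters. In CD40 against control its ratio was -2.01 (-5.72 to -0.58) in conventional CD4 T cells, with a count raised to 3, and -1.15 (-2.52 to -0.02) in regulatory T cells.

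The PD1 antibody was read in the other pair of comparisons that share no library, PD1 against control and combination against CD40. In macrophages 16 of 37 were at least 1.5-fold higher and none lower in PD1 against control, with a median of 0.53, beside 6.09% higher and 7.85% lower of 13419 genes and an all-gene median of -0.06. In combination against CD40 12 of 37 were higher and none lower, with a median of 0.48, beside 4.82% and 6.30%. All 37 members lay above 0 in both comparisons.

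Ifi205 led in macrophages, at 67.1, 58.7, 160.0 and 148.3 CPM, with ratios of 1.25 (1.19 to 1.32) and 1.34 (1.27 to 1.40). Zbp1 stood at 140.7, 147.0, 301.6 and 265.5 CPM, with ratios of 1.10 and 0.85. For both sensors the PD1 and combination libraries were high and the control and CD40 libraries about level. Isg15 stood at 385.2, 287.1, 645.6 and 466.2 CPM, with ratios of 0.75 and 0.70, Ifit1 at 44.4, 38.0, 77.1 and 65.8 CPM, with ratios of 0.80 and 0.79, and Ifit2 at 59.8, 46.8, 110.7 and 74.7 CPM, with ratios of 0.89 and 0.67. The count in PD1 against control was 10 under a stricter gate, beside 5.49% of all genes, and 8 when the class was taken from clusters, beside 5.78%.

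**Figure D3:**
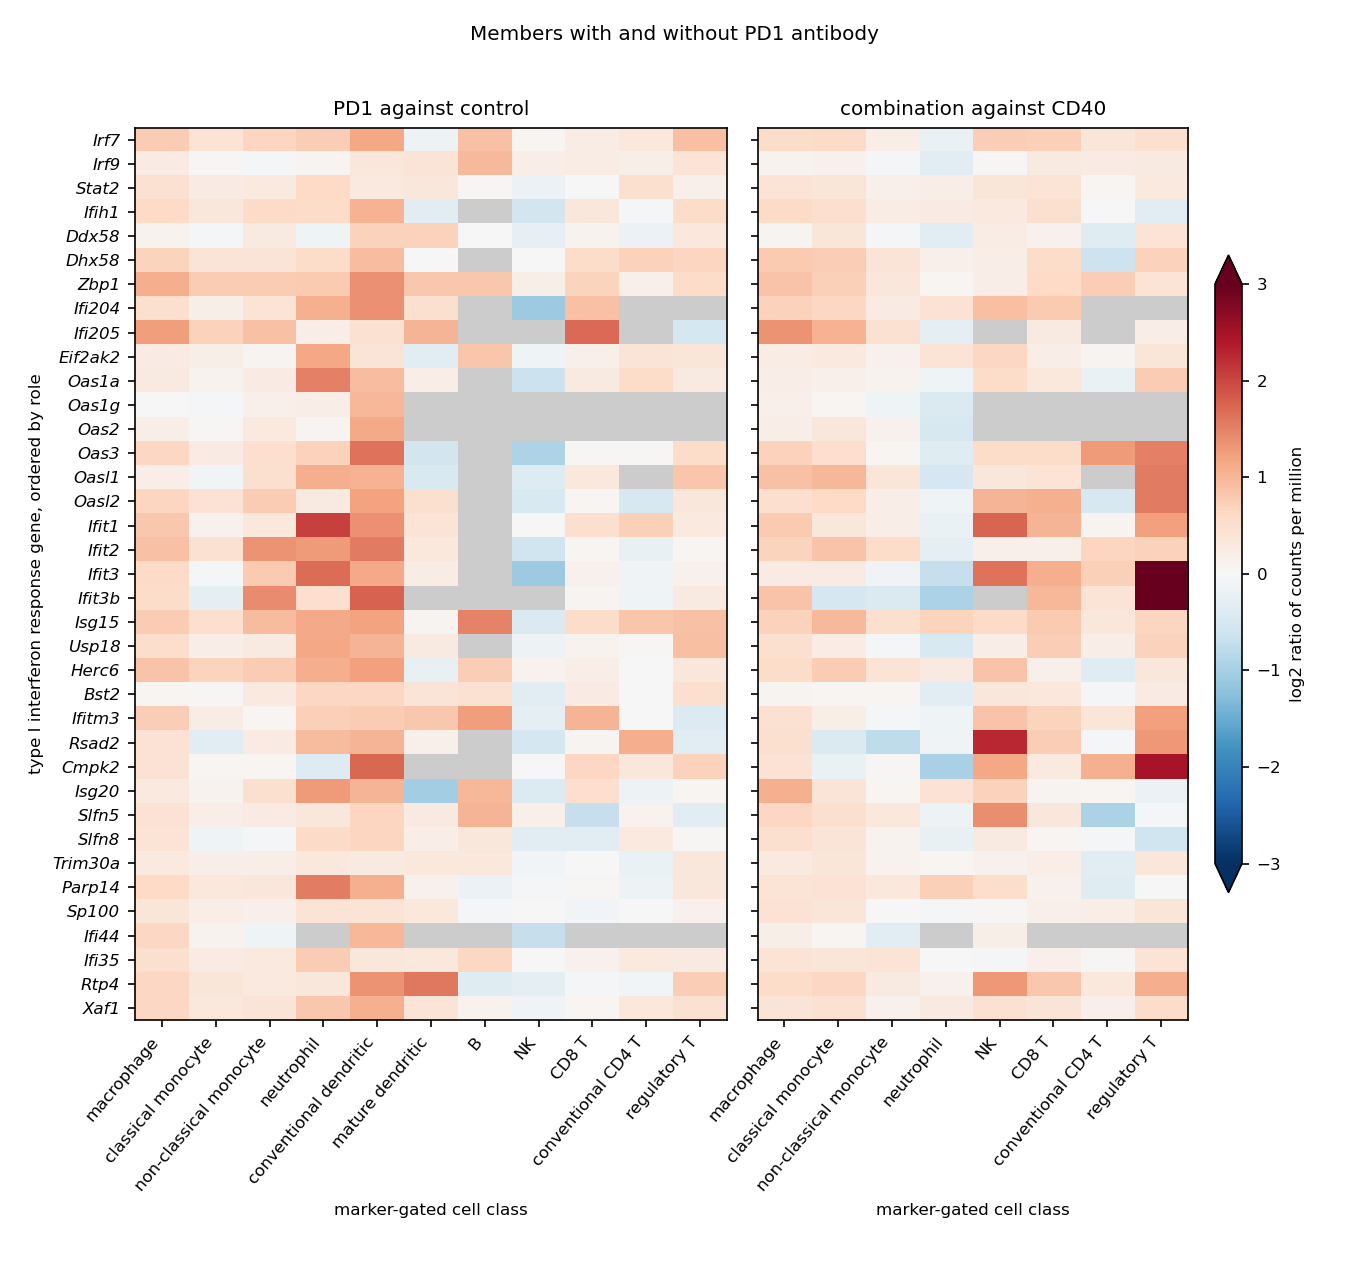
Log2 ratios of CPM for the 37 members (rows, ordered by role), with PD1 against control in 11 cell classes on the left and combination against CD40 in 8 on the right. Red is higher with PD1 antibody, grey has under 50 UMIs, and colours end at -3 and 3. The conventional dendritic column is red, the macrophage columns run from near white (Bst2) to red, and the NK column turns from pale blue on the left to red on the right.

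Conventional dendritic cells, which present tumour antigen to T cells, had 30 of 37 members higher and none lower in PD1 against control, with a median of 1.03, beside 5.01% higher and 3.67% lower of 9702 genes and an all-gene median of 0.01. All 37 lay above 0. Isg15 stood at 184.0 CPM in control and 422.8 CPM in PD1, a ratio of 1.20 (1.10 to 1.30), Irf7 at 122.7 and 274.0 CPM, a ratio of 1.16, and Zbp1 at 97.3 and 251.6 CPM, a ratio of 1.37. Ifit2 stood at 27.0 and 80.4 CPM, a ratio of 1.57 (1.32 to 1.83), and Oas3 at 10.1 and 31.1 CPM, a ratio of 1.63 (1.21 to 2.05). When the class was taken from clusters 17 of 37 members were higher, beside 3.46% of all genes. Mature dendritic cells had 5 of 32 measured members higher and 1 lower, beside 9.62% and 9.12% of all genes, and B cells 10 of 19 higher and none lower, beside 8.10% and 8.90%. Plasmacytoid dendritic cells, known as strong makers of interferon alpha, numbered 49, 21, 69 and 7 and had summed member levels of 6125, 6548, 6615 and 6218 CPM.

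Fewer members differed by the PD1 antibody in monocytes. Classical monocytes had 3 of 37 higher and none lower in PD1 against control, with a median of 0.20, beside 5.24% and 6.36% of all genes, and 10 higher and none lower in combination against CD40, with a median of 0.37, beside 5.23% and 7.33%. The 3 were Zbp1, with ratios of 0.75 (0.71 to 0.80) and 0.72 (0.68 to 0.77), Ifi205, with 0.70 and 1.04, and Herc6, a ligase of the Isg15 system, with 0.66 and 0.75. Ifi205 stood at 298.2, 212.9, 483.4 and 436.3 CPM and Herc6 at 62.1, 43.6, 98.3 and 73.4 CPM. Both were thus high in the libraries given PD1 antibody, while Rsad2 was slightly lower with it, with ratios of -0.31 and -0.43. Non-classical monocytes had 9 of 37 higher and none lower in PD1 against control, beside 6.88% and 5.72%, and none higher and 1 lower in combination against CD40, beside 2.92% and 3.73%.

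In neutrophils 21 of 36 members were higher and none lower in PD1 against control, with a median of 0.70, beside 16.3% and 15.9% of all genes. In combination against CD40 2 were higher and 3 lower, with a median of -0.13, beside 7.47% higher, 40.9% lower and an all-gene median of -0.46. Parp14, an ADP-ribosyltransferase, stood at 65.4, 189.3, 188.4 and 311.4 CPM and was higher in both, with ratios of 1.53 (0.89 to 2.20) and 0.72 (0.54 to 0.90). Ifit3 had opposite signs, 1.68 (1.06 to 2.34) and -0.69 (-0.83 to -0.54).

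NK cells differed between the PD1 antibody comparisons. In PD1 against control 6 of 33 were lower and none higher, with a median of -0.24, beside 5.93% and 3.76% of all genes. In combination against CD40 13 of 33 were higher and none lower, with a median of 0.52, beside 3.43% and 3.16%. Ifit3 showed this in 1 gene, at 26.0, 1.80, 12.2 and 5.55 CPM on 85, 9, 58 and 37 UMIs, with ratios of -1.09 (-1.59 to -0.59) and 1.62 (0.55 to 2.86), the second of which was -1.02 with classes from clusters. Ifi204 did so too, at 12.5, 2.40, 5.90 and 4.50 CPM, with ratios of -1.08 (-1.83 to -0.36) and 0.91 (-0.10 to 2.01). The second comparison starts from the CD40 library, where NK levels were lowest.

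CD8 T cells and regulatory T cells had more members higher than lower in both comparisons. CD8 T cells had 5 of 34 members higher and 1 lower in PD1 against control, beside 5.93% and 9.80% of all genes, and 12 higher and none lower in combination against CD40, beside 3.38% in each direction. All 34 lay above 0 in the second comparison. CD8 T cell Ifitm3 stood at 27.8, 45.9, 55.9 and 72.3 CPM, with ratios of 1.01 (0.81 to 1.21) and 0.66 (0.56 to 0.75), Isg15 at 49.3, 51.7, 71.7 and 89.3 CPM, with ratios of 0.54 and 0.79, and Irf7 at 35.0, 37.4, 40.8 and 61.5 CPM, with ratios of 0.22 and 0.72. All 3 were highest in the combination library. The partners Irf9, at 30.4, 41.0, 35.6 and 49.0 CPM, and Stat2, at 22.4, 21.2, 22.2 and 27.9 CPM, were highest there too. Regulatory T cells had 7 of 33 higher and none lower in PD1 against control, beside 3.79% and 3.32%, and 15 higher and 1 lower in combination against CD40, beside 10.0% and 14.2%. Rtp4 stood at 75.4, 66.0, 125.1 and 141.7 CPM there, with ratios of 0.73 (0.50 to 0.97) and 1.10 (0.66 to 1.56). Oasl1 at 5.40, 4.71, 9.70 and 13.8 CPM, Cmpk2 at 10.2, 3.54, 16.4 and 19.5 CPM and Dhx58, a regulator of RNA sensing, at 17.1, 18.9, 26.8 and 30.1 CPM were likewise high in both PD1 antibody libraries, with wide intervals. The ratios of Oasl1 were 0.84 (-0.05 to 1.78) and 1.55 (-0.06 to 3.58), and both intervals include 0. Those of Cmpk2 were 0.68 (0.02 to 1.36) and 2.47 (0.75 to 4.84). Dhx58 had 0.64 (0.14 to 1.16) and 0.68 (-0.21 to 1.62), the second of which includes 0. Conventional CD4 T cells had 4 of 31 higher and none lower, beside 6.57% and 7.20%, and then 5 higher and 2 lower, beside 9.65% and 10.8%. Dhx58 in that class had opposite signs, at 16.3, 15.6, 26.4 and 10.0 CPM, with ratios of 0.69 (-0.24 to 1.68) and -0.63 (-2.18 to 0.94). Both intervals include 0, and the second ratio was 0.13 with equal weight for each cell.

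The spread over cells was read after thinning each cell to 2000 UMIs, with Ifitm3 left out because it outweighs the rest. In classical monocytes the median cell held 10, 8, 14 and 11 member UMIs, while the cell at the 90th percentile held 33, 18, 38 and 24. The 10% of cells with most member UMIs held 36.4%, 29.1%, 29.5% and 25.7% of the member UMIs. The difference with CD40 antibody was thus larger among the cells with the most member UMIs than in the median cell. In NK cells the median was 2, 2, 3 and 2, and the 99th percentile was 32.3, 8.02, 26.9 and 16.0.

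In neutrophils the median cell held 3, 15, 4 and 18 member UMIs and the 90th percentile 18, 43.5, 47.8 and 44. In the PD1 library the 10% of neutrophils with most member UMIs held 55.4% of them, against 31.2% in the CD40 library. The PD1 share rests on few of the 154 neutrophils there, and the control share is not given. The share of neutrophils with no member UMI was 17.8%, 1.37%, 9.68% and 0.483%. Thinning left out 95, 32, 61 and 50 neutrophils with fewer UMIs. In macrophages the median cell held 4, 4, 7 and 7.

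**Figure D4:**
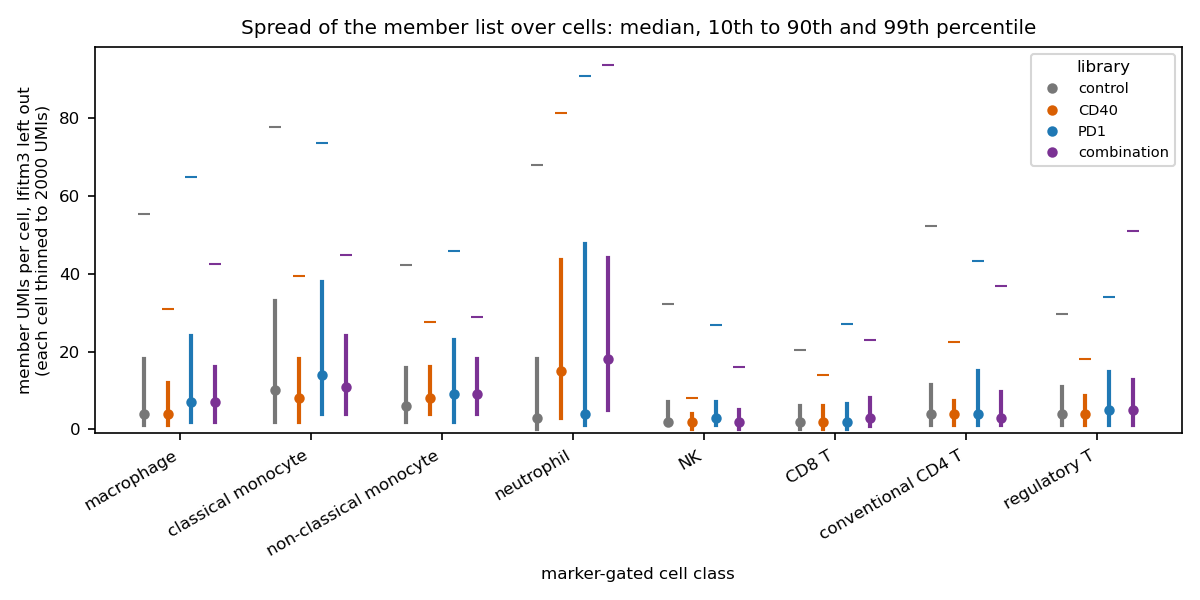
Member UMIs per cell without Ifitm3, after thinning each cell to 2000 UMIs, in 8 cell classes and 4 libraries. Points are medians, thick lines run from the 10th to the 90th percentile, and dashes mark the 99th percentile. Neutrophil medians are 3 and 4 in the control and PD1 libraries and 15 and 18 in the CD40 and combination libraries.

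The genes above the response in the pathway were listed apart from the members. Of 18 type I interferon genes in the matrices 8 had any UMI, 204, 441, 503 and 46 UMIs in all over the kept cells, and Ifnb1, which encodes interferon beta, gave 156, 430, 471 and 30 of them. These came from 26, 46, 36 and 4 cells, and the 3 highest cells held 41.7%, 49.8%, 39.1% and 86.7% of the Ifnb1 UMIs. Macrophages held 104, 382, 330 and 30 of them and plasmacytoid dendritic cells none. The single highest cell held 39, 130, 66 and 12 Ifnb1 UMIs. The summed member level of classical monocytes was 11994, 8573, 14445 and 11140 CPM, and its relation to Ifnb1 was not tested. With so few cells the Ifnb1 counts describe these libraries only.

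Receptor and kinase genes differed little in classical monocytes. None of Ifnar1, Ifnar2, Jak1 and Tyk2 reached 1.5-fold there in any of the 4 comparisons, and their ratios in CD40 against control ran from -0.21 to 0.11. Of 8 measured sensors and adaptors 3 were lower and none higher in CD40 against control, beside 6.72% of all genes lower. In NK cells Ifnar1 stood at 91.6, 56.8, 98.3 and 67.8 CPM and Ifnar2 at 126.7, 82.7, 138.5 and 84.8 CPM. Both receptor chains were thus low in the same libraries as the members, with ratios between -0.71 and -0.53.

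The 17 genes of a list tied to interferon gamma (Gbp and Irg family GTPases, Cxcl9, Ciita, Ido1, Socs1, Irf1 and others) were read in the same cells. In classical monocytes none was lower and 6 were higher in CD40 against control, with a median of 0.03 beside -0.61 for the members, and all 17 were higher in PD1 against control, with a median of 1.48 beside 0.20. In macrophages the medians were 0.77 and 1.45, beside -0.18 and 0.53 for the members. In neutrophils 14 of 14 measured genes were higher in CD40 against control, beside 14.7% of all genes, with a median of 3.17 beside 1.31. In NK cells the medians were -0.32 and 0.18, beside -1.32 and -0.24. Ifng itself had 3065, 17492, 14765 and 32429 UMIs over all kept cells. The difference between the lists was not tested, and these medians share the control library. The shares of all genes past 1.5-fold in classical monocytes are those given with the members above.

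**Figure D5:**
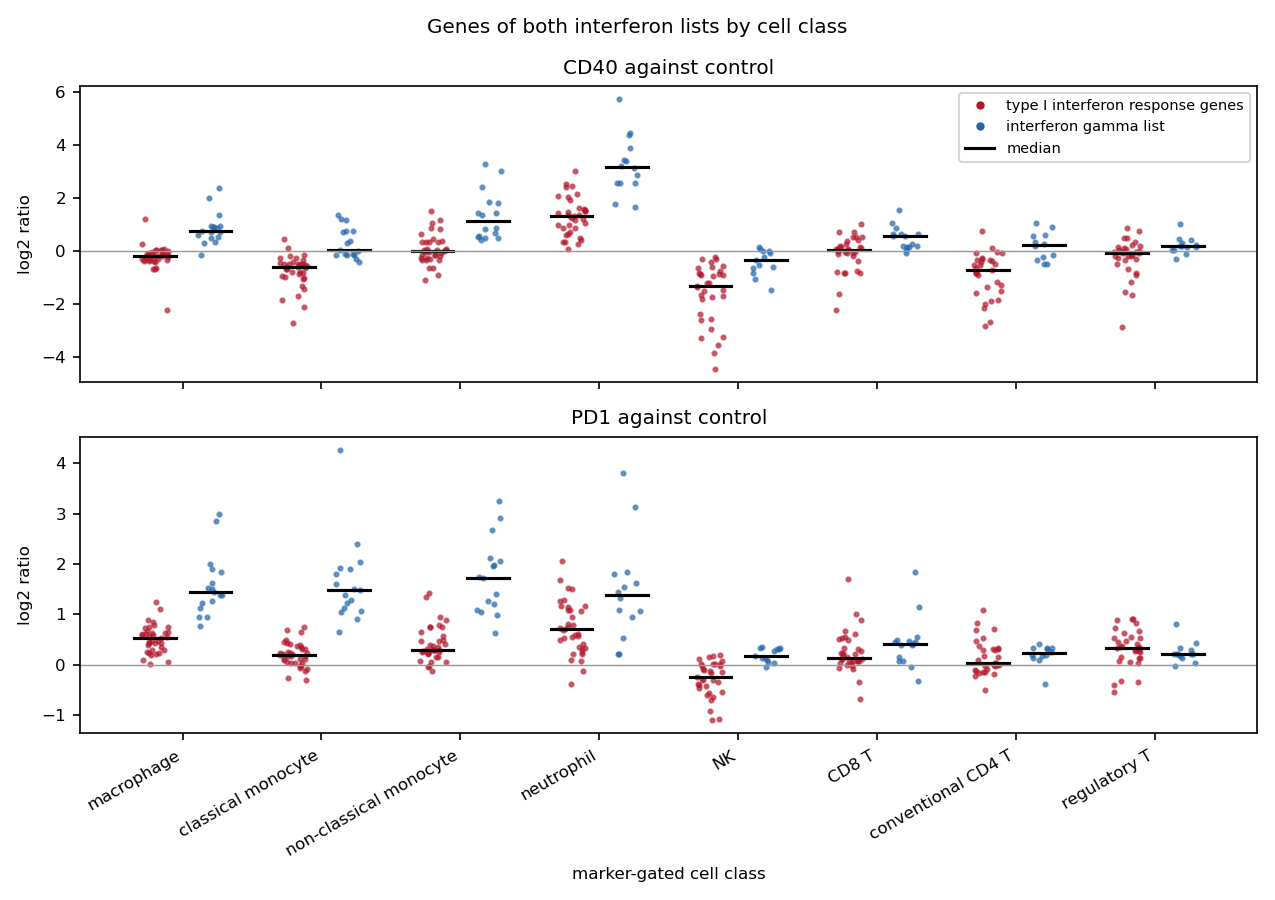
Log2 ratios of the measured members (red) and of the interferon gamma list (blue) in 8 cell classes, CD40 against control above and PD1 against control below, with 1 point per gene and black bars at the medians. In classical monocytes the member median is -0.61 and the other list's 0.03 in the upper panel, and 0.20 and 1.48 in the lower panel.

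Members with and without a response element match in the promoter window were set side by side, first in CD40 against control, and the difference was not tested. In classical monocytes the median ratio was -0.61 with a match and -0.53 without, and 11 of 18 and 5 of 12 members were at least 1.5-fold lower, beside 6.72% of all genes. In NK cells the medians were -1.46 and -1.27, and 15 of 15 and 8 of 12 were lower, beside 16.0% of all genes. In neutrophils the medians were 1.35 and 1.25, and 16 of 18 and 9 of 11 were higher, beside 14.7% of all genes. Combination against PD1 did not keep this order in every class. There classical monocytes had -0.42 and -0.35, with 5 of 18 and 3 of 12 lower, beside 6.58%. NK cells had -0.49 and -0.65, with 7 of 15 and 7 of 12 lower, beside 10.9%. Neutrophils had 0.40 and 0.53, with 7 of 18 and 4 of 11 higher, beside 10.3%. Ifit2 and Isg20, without a match in the window, were among the lowest in classical monocytes, as was Ifit3, which has 2 matches.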

How the data were processed

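Live CD45+ tumour cells of 1 library per group were profiled with 5′ droplet RNA sequencing. The authors deposited raw UMI counts, made with Cell Ranger 7.0.0 and GRCm38 per the submitters' processing notes. The annotation release and cell-calling settings: not given in the sources used here.

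A cell needed 300 genes or more and no more than 10% mitochondrial UMIs. Scrublet (scanpy 1.11.5, score over 0.25) removed 111, 149, 257 and 239 predicted doublets. A class needed a set number of its marker genes with a UMI: 4 of 6 for T cells, 3 of 7 for NK cells, 3 of 6 for B cells, 4 of 7 for phagocytes, 4 of 8 for neutrophils and 3 of 5 for phagocyte subsets. Cells passing several gates (329 to 549 per library) or none (573 to 754) entered no class.

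Intervals of levels are exact Poisson and those of ratios exact conditional binomial. In a ratio, counts below 3 were raised to 3. No test was run, and the steps were tested on simulated data. Members and lists were chosen with earlier results of these data known. The rule named Irf7, Irf9 and Stat2, up to 5 members per class, antibody and direction with the largest ratio of one sign in both comparisons, and members past 1.5-fold with opposite signs. Of these, members past 1.5-fold in both comparisons are given by library and most others only in counts. Members named outside the rule were chosen after their values were seen. Positions are from GENCODE vM21. Versions were Python 3.11.15 with scipy 1.17.1, pandas 2.3.3, numpy 2.4.6 and igraph 0.11.9. Alternatives were stricter gates, classes from clusters, doublets kept, other UMI minimums, a fold of 2, centring, cell weighting and thinning, and 4 cell selections chosen after seeing the data. Some results that rest on certain genes are not reported here.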

Additional observations from a re-analysis of the deposited data

Results flagged for a closer look

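The same antibody went with opposite directions in different cell classes. In CD40 against control 30 of 36 members were at least 1.5-fold higher in neutrophils (14.7% of all genes) and none lower, while 20 of 37 were lower in classical monocytes (6.72%) and 28 of 33 in NK cells (16.0%) and none higher in either. In combination against PD1 15 of 36 were higher in neutrophils (10.3% of all genes, with 46.1% lower and an all-gene median of -0.52) and none lower. In that comparison 9 of 37 were lower in classical monocytes (6.58%) and 15 of 33 in NK cells (10.9%) and none higher in either. The difference between the classes was not tested, since each class comes from 1 library per group.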

How the results depend on the processing

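No paired analysis was possible because each group has 1 library. Depth limits neutrophils, conventional CD4 T cells and regulatory T cells, where single members rest on few UMIs, and intervals leave out the spread between mice.

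Counts were past 1.5 times their reported value as follows, and the cause was not tested except that a larger fold or UMI minimum counts fewer genes. With a fold of 2, macrophages had 2 members higher in PD1 against control (2.50% of all genes) and 2 in combination against CD40 (1.52%). At that fold classical monocytes had 8 lower in CD40 against control (2.47%). Neutrophils had 4 higher (4.90%) and NK cells 7 lower (3.37%) in combination against PD1. CD8 T cells had 3 higher in combination against CD40 (1.19%). Over the 8 classes, pairs of class and member then fell from 87 to 46 lower and from 43 to 28 higher in CD40 against control, from 57 to 28 lower and from 32 to 8 higher in combination against PD1, from 7 to 2 lower and from 65 to 19 higher in PD1 against control, and from 7 to 0 lower and from 69 to 26 higher in combination against CD40. With a minimum of 200 UMIs NK cells had 8 lower in combination against PD1 (7.74% of all genes), and the pairs were 36 lower there and 3 lower in PD1 against control. Pairs of class and member are given without a share over all genes, so they describe the members alone. With a minimum of 10 UMIs the lower pairs in combination against CD40 were 14, and with ratios centred on all genes 3, while neutrophils had 24 higher in combination against PD1. A stricter gate gave 10 in macrophages in PD1 against control. Classes from clusters gave 8 there, 15 lower in classical monocytes and 5 lower in NK cells in combination against PD1, and 17 higher in conventional dendritic cells. All mononuclear phagocytes together gave 10 lower in CD40 against control, and classical monocytes without Cxcl10 gave 9, and 4 in combination against PD1.

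Of 661 recomputed ratios of named members 505 moved by less than their interval, 147 moved by more and 9 reversed. That total pools settings of unlike weight. Leaving out the main class counts, classes from clusters left 77 values the same, moved 80 and reversed 5. Keeping doublets left 181 the same and moved 3. With classes from clusters the reversed ones were Rsad2 in non-classical monocytes (0.34 in CD40 against control, and 0.32 for combination with PD1), Ifit3 in NK cells (-1.02 in combination against CD40), and Ifit3 (-0.10) and Ifitm3 (-2.77) in regulatory T cells in combination against PD1. A stricter gate reversed Ifi205 (1.83 and 0.28) and Ifitm3 (0.59 in CD40 against control) in regulatory T cells, and equal weight for each cell reversed Dhx58 in conventional CD4 T cells (0.13 in combination against CD40).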
